A study of Mus musculus with 29 samples.

Results

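Surfactant and alveolar type II genes were followed across 28 mouse lung tumours and 1 normal lung, each measured on its own Affymetrix array. The set holds 10 genes of the alveolar type II cell, chosen by name: Sftpa1, Sftpb, Sftpc, Sftpd, Napsa, Abca3, Lamp3, Slc34a2, Lpcat1 and S100g. They stand among 18194 genes with a probe set of their own, and every probe set annotated to them was taken. Of the 10 genes, 9 had probe sets of their own, 18 in all. The only probe set of Lamp3, a membrane protein of the lamellar body, is also annotated to the gene Ppid, so no level is given for Lamp3. For each of the 9 genes the probe set with the highest mean signal is called the leading one, and the 9 other probe sets are described beside it because some of them disagreed with it.

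All mice had a mixed 129/Bl6 background and carried CCSP-rtTA. TI-K tumours (8 arrays) also carried 1 TRE-driven transgene, and TI-KM primary tumours (14 arrays) and TI-KM recurrences (6 arrays) carried that transgene and TRE-Mad2, while the normal lung (1 array) had CCSP-rtTA alone. The CCSP promoter drives the transactivator in airway epithelium, and the study asked how Mad2-induced chromosome instability bears on relapse. The labels do not give the age of the mice, the time on or off doxycycline, or the animal behind each array, so p-values measure the spread between these samples, which may in part be technical. TI-KM primaries 1 and 2 share the number 76 in their titles.

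Alveolar type II cells make surfactant, the film of lipid and protein that lowers surface tension in the air space. Surfactant proteins B and C are small hydrophobic proteins that are cut from larger precursors and stored with lipid in lamellar bodies, while surfactant proteins A and D are collectins that bind microbes. Lung adenomas and adenocarcinomas of mice often keep features of alveolar type II cells, and these genes are widely used to recognise them.

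Levels are MAS5 signals on a linear scale. A difference is one of mean log2(signal + 20), given with its standard error (SE) from limma, and a probe set is called at an adjusted p below 0.05 over the 31932 probe sets tested. All 18 probe sets passed the filter on dim signals. The arrays also fell into sets that cross the groups and were defined from control signals and title numbers, not by the study. In 10 tumours, TI-KM primaries 1 to 6 and recurrences 1 to 4, the 18S ribosomal control lay above 12000 (high-18S arrays). The normal lung, at 12569, lay above 12000 too but was kept apart from these sets. Comparisons with it were not fitted with the sets as a block. TI-K primaries 1 to 5 have title numbers above 6000 (high-number arrays), and the other 13 tumours are called the remaining arrays. Differences between tumour groups are therefore also given with these sets as a block; the high-number set holds TI-K tumours alone, so only the 3 remaining TI-K arrays then bear on the comparison with other groups.

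Promoter sequences are shown for 3 of these genes: Sftpa1, the brightest, Sftpb, which varied most among the surfactant proteins on its leading probe set, and Slc34a2, which followed the set as a whole most closely. The RefSeq promoter table (GRCm38.p6) held 7 of the 10 genes. Each sequence is the 250 bases before the gene's start on the + strand, at chr14:41131538-41131787 for Sftpa1, chr6:72304360-72304609 for Sftpb and chr5:53049103-53049352 for Slc34a2. Capitals mark CTCAAG, letters found in binding sites of the lung factor Nkx2-1, TGTTTNC, letters of forkhead sites, and TATAAA, each searched on both strands; no 2 matches overlap here.
Sftpa1: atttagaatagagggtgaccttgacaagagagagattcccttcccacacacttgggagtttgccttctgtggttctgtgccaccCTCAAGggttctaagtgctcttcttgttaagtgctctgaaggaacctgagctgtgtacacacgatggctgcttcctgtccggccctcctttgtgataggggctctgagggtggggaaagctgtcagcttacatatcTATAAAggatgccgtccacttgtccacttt
Sftpb: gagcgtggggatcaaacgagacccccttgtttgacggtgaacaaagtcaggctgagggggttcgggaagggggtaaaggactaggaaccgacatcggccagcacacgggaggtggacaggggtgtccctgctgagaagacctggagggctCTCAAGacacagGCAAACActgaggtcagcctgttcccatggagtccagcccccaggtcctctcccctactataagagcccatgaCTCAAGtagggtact
Slc34a2: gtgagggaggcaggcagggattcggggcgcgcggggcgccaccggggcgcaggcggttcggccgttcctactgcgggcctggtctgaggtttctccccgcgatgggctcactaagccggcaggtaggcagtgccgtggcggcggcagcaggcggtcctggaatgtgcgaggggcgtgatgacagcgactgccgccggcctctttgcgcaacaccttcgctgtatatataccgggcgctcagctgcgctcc
Sftpa1 held CTCAAG at bases -166 to -161 before the start and TATAAA at -30 to -25. Sftpb held CTCAAG in 2 places, at -100 to -95 and -15 to -10, and TGTTTNC on the other strand at -88 to -82. Slc34a2 held none of the 3 motifs, and neither did Abca3 or Lpcat1. Over 32851 promoters of this length, 13.3% held CTCAAG, 17.8% TGTTTNC and 12.4% TATAAA. A match of letters describes the sequence only. Sftpa1 and Sftpd are neighbours with 1 protein-coding gene between them.

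Most of these genes had higher signals in tumours of every group than in the normal lung, and the leading probe set of Sftpc was the exception. On the leading probe sets, 7 of the 9 genes were above the normal lung in all 28 tumours, Lpcat1 was above it in 27 and Sftpc in 2. In bulk tissue more cells of a type and more RNA per cell cannot be told apart. The normal lung is 1 array whose spread was taken from the tumour groups, and all 3 comparisons with it share that array.

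Among the collectins, Sftpa1 (1422334_a_at) had a signal of 6638 in the normal lung, 24941 to 37251 (median 30972) in TI-K primaries, 22719 to 39618 (median 28763) in TI-KM primaries and 16407 to 36442 (median 28148) in recurrences. Every tumour lay above the normal lung, and the tumour groups overlapped. TI-K primaries differed from normal lung by 2.22 ± 0.27 (4.66-fold, adjusted p = 9.43e-07). The second Sftpa1 probe set, 1429626_at, had 3164 in the normal lung and 7851 to 28326 in tumours. Its TI-K difference was larger, at 2.78, and it ranged 3.61-fold over the tumours, against 2.41-fold for the leading one. Sftpd (1420378_at) had 4609.8 in the normal lung, 21476 to 35270.3 (median 23698) in TI-K primaries, 18450.4 to 32208 (median 23374) in TI-KM primaries and 12823 to 26391 (median 20659) in recurrences. It too was higher in every tumour, by 2.43 ± 0.28 in TI-K primaries (5.37-fold, adjusted p = 2.99e-07).

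The hydrophobic surfactant proteins went separate ways. Sftpb (1437028_at), which lamellar bodies need to form properly, had a signal of 685 in the normal lung, 4381 to 11251 (median 7322) in TI-K primaries, 4099.9 to 13965 (median 7147) in TI-KM primaries and 4320.4 to 15055 (median 10989) in recurrences. All tumours were above the normal lung, with a TI-K difference of 3.31 ± 0.55 (9.94-fold, adjusted p = 0.00011).

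Sftpc (1418639_at), the transcript most used to mark alveolar type II cells, had a signal of 28262 in the normal lung, 15504 to 31058 (median 18660.4) in TI-K primaries, 11531 to 28941 (median 16570.2) in TI-KM primaries and 10459.9 to 20649 (median 13617) in recurrences. TI-K primary 1 and TI-KM primary 3 were the 2 tumours above the normal lung. The differences from normal lung were -0.51 ± 0.35 (adjusted p = 0.451) for TI-K primaries, -0.75 ± 0.34 (adjusted p = 0.178) for TI-KM primaries and -0.98 ± 0.35 (adjusted p = 0.0761) for recurrences, and none was called. Fitted on the remaining arrays with the normal lung, the same differences were -0.61 ± 0.23, -0.67 ± 0.21 and -0.91 ± 0.24. The 18S control of the normal lung (12569) lay above that of every remaining array (5939 to 10857). A difference of array set and one of tissue cannot be told apart in that fit. The second Sftpc probe set, 1438290_x_at, disagreed: the normal lung had 1365, all 8 TI-K primaries and 15 of 28 tumours in all lay above it, and its differences of 1.88 ± 1.35 (adjusted p = 0.492) for TI-K primaries, 0.30 ± 1.32 (adjusted p = 0.935) for TI-KM primaries and -1.13 ± 1.37 (adjusted p = 0.66) for recurrences were not called.

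Genes that process and package surfactant were also high in tumours on their leading probe sets. Napsa (1423590_at), an aspartic protease that trims the precursors of surfactant proteins B and C, had a signal of 693 in the normal lung, 8856 to 13651 (median 12483) in TI-K primaries, 11064 to 18004 (median 13492) in TI-KM primaries and 4438 to 16607 (median 13196) in recurrences. Its TI-K difference of 4.07 ± 0.37 (16.8-fold, adjusted p = 5.38e-09) was the largest of the 9 leading probe sets. Abca3 (1451731_at), the transporter that loads phospholipid into lamellar bodies, had 3188 in the normal lung, 13482 to 21117 (median 15568) in TI-K primaries, 8762 to 18546 (median 13705) in TI-KM primaries and 5136 to 17526 (median 12425) in recurrences. Every tumour lay above the normal lung, and the TI-K difference was 2.30 ± 0.38 (4.94-fold, adjusted p = 0.000105). The other probe sets did not all follow. Against normal lung, Napsa 1430744_at was called higher in TI-K primaries (2.68) but not in TI-KM primaries (1.17) or recurrences (-0.18). Abca3 1451869_at was called in no group (1.75, -0.29 and -0.89), and 13 of 28 tumours lay above the normal lung. Abca3 1425496_at was called higher in every tumour group (3.11, 2.76 and 3.18).

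Lpcat1 (1424460_s_at), the acyltransferase that makes the main surfactant phospholipid, had a signal of 9893 in the normal lung, 13873 to 20654 (median 16130.3) in TI-K primaries, 13861 to 21110.2 (median 16347) in TI-KM primaries and 6963 to 19918 (median 15045) in recurrences. Its TI-K difference of 0.73 ± 0.31 (adjusted p = 0.153) was not called. The Lpcat1 probe sets did not give the same size: 1451359_at differed by 2.99 ± 0.55 (adjusted p = 0.000343) and 1424459_at by 2.29 ± 0.55 (adjusted p = 0.00584), and both were called. The 2 dimmer ones were not, with 0.24 ± 0.81 (adjusted p = 0.925) for 1420293_at and -0.09 ± 0.51 (adjusted p = 0.959) for 1420294_at.

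Slc34a2 (1416854_at), the sodium-phosphate cotransporter of the apical membrane, had a signal of 5528 in the normal lung, 16954 to 25622 (median 18925) in TI-K primaries, 14938 to 21935 (median 18711) in TI-KM primaries and 7408 to 20775 (median 16370.1) in recurrences. The TI-K difference was 1.82 ± 0.31 (3.54-fold, adjusted p = 0.000121). S100g (1448964_at), the calcium-binding protein calbindin-D9k, had 83.9 in the normal lung, 377 to 2432 (median 684) in TI-K primaries, 319 to 979 (median 737.4) in TI-KM primaries and 123 to 1117 (median 320.2) in recurrences. All tumours were above the normal lung for both genes, and S100g differed by 2.97 ± 0.69 in TI-K primaries (adjusted p = 0.00455) but by an uncalled 1.87 ± 0.71 (adjusted p = 0.0935) in recurrences. Its signal in the normal lung lay below that array's median signal of 111, so no fold is given.

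**Figure D1:**
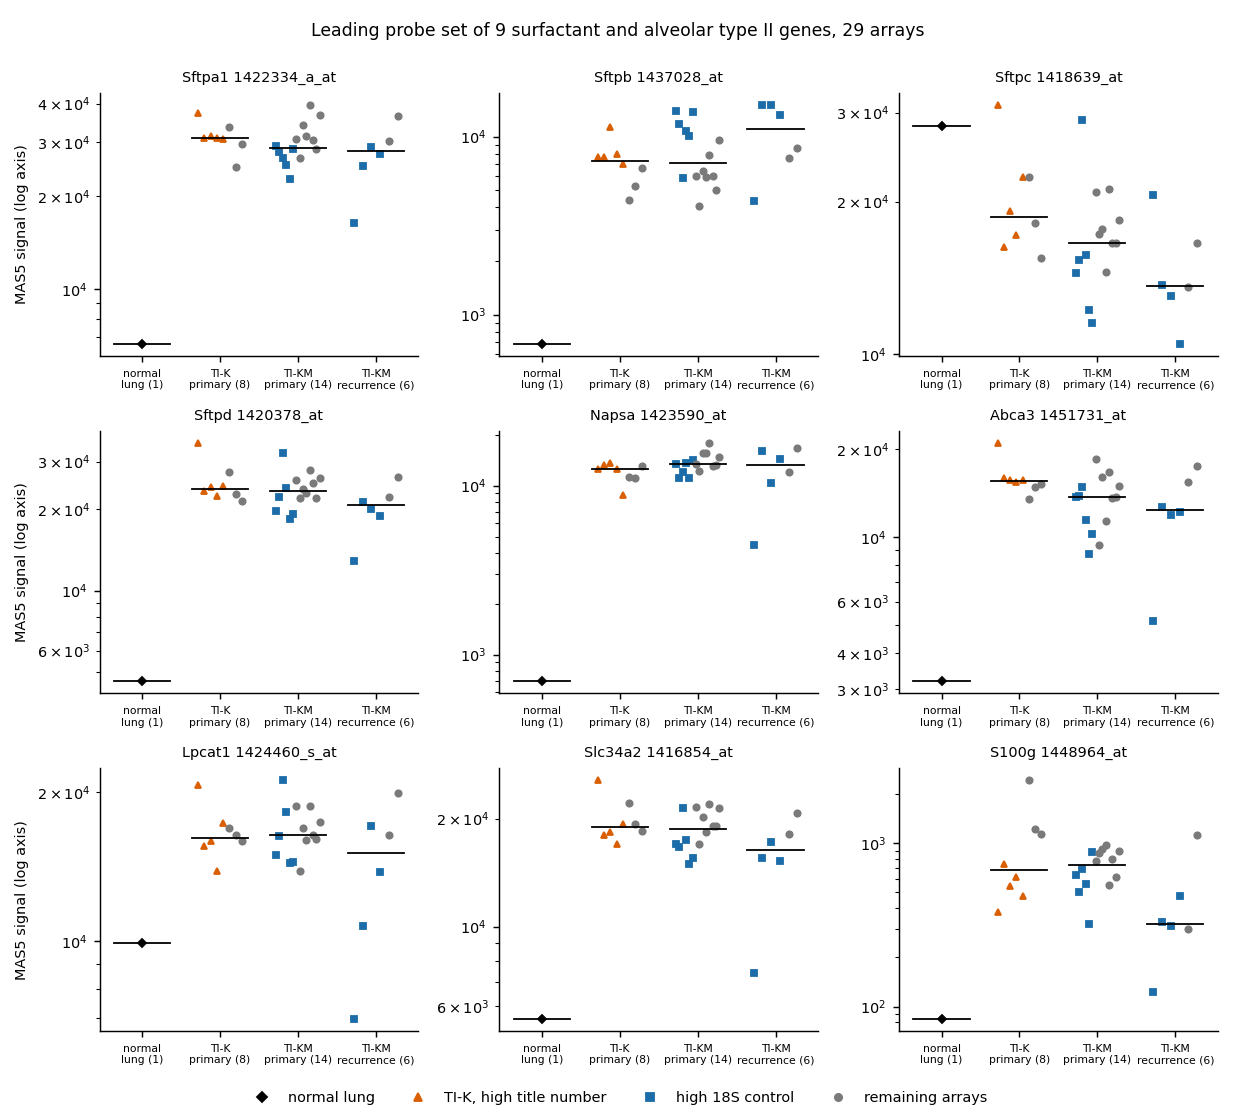
MAS5 signal (log axis) of the leading probe set of each of the 9 genes by group, with 1 point per array, the group median as a line and the array set as the marker shape. In the Sftpc panel the normal lung, at 28262, sits above 26 of the 28 tumours, while in the panels of 7 other genes it lies below every tumour.

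Over all 18 probe sets, 12 were called higher and 0 lower in TI-K primaries than in normal lung, where 9.06% of all probe sets tested were called (4.49% higher). For TI-KM primaries 11 were higher and 0 lower (10.3% of all called, 5.31% higher), and for recurrences 10 and 0 (9.34% of all called, 4.66% higher). The median difference of the leading probe sets in TI-K primaries was 2.30, against 0.04 over all probe sets. Among the leading ones, 7 of 9 were called in each primary group and 6 of 9 in recurrences.

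Other genes of the same cell and pathway were taken from lists, with 1 probe set a gene. Of the other alveolar type II markers, 13 higher and 0 lower of 15 were called in TI-K primaries against normal lung (median difference 2.41, against 0.00 over all genes, of which 11.9% were called). Chil1, a chitinase-like protein, differed by 4.38 ± 0.42 (adjusted p = 1.59e-08) and Egfl6, a secreted matrix protein, by 4.23 ± 0.63 (adjusted p = 2.43e-05). Etv5, a transcription factor of these cells, differed by 2.51 ± 0.57 (adjusted p = 0.00333), Lyz2, lysozyme, by 1.23 ± 0.24 (adjusted p = 0.000938) and Cxcl15, the chemokine lungkine, by 1.06 ± 0.25 (adjusted p = 0.00536).

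Genes of surfactant maturation and recycling gave 4 higher and 0 lower of 13 (median 0.96). Ctsh, a cathepsin that acts with Napsa on the surfactant protein precursors, rose from 1822 in the normal lung to 19212 to 30857 in TI-K primaries, by 3.64 ± 0.34 (adjusted p = 6.49e-09). Atp11a, a phospholipid flippase, differed by 2.76 ± 0.40 (adjusted p = 1.56e-05) and Rab38, a small GTPase of lamellar body formation, by 1.97 ± 0.35 (adjusted p = 0.000263). The regulators gave 4 higher and 0 lower of 11 (median 0.56), with Klf5 at 2.60 ± 0.53 (adjusted p = 0.00118) and Foxa2, a forkhead factor, at 1.89 ± 0.40 (adjusted p = 0.00194). Nkx2-1, the homeodomain factor that acts on surfactant gene promoters, was dim, at 64.9 in the normal lung and 6.37 to 111 in tumours, and its difference of -0.05 ± 0.51 (adjusted p = 0.976) was not called.

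Genes of lipid synthesis gave 3 higher and 5 lower of 16 (median -0.81). Chka, choline kinase, was higher by 1.79 ± 0.46 (adjusted p = 0.01), whereas Elovl6, a fatty acid elongase, differed by -5.91 ± 0.46 (adjusted p = 1.55e-10) and Lpin1, lipin, by -2.98 ± 0.39 (adjusted p = 3.72e-06). The normal lung held a summed signal of 84864 over 4 fat genes, against 155 to 1872 in the tumours, and its endothelial sum was 20665 against 3161 to 12111, its fibroblast and muscle sum 43648 against 6797 to 29696. Alveolar type I markers (78173 against 36625 to 87472) and club cell markers (113660 against 14514 to 119473) overlapped with tumours. The part of fat and of these other cells in the differences from normal lung was not tested.

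Several leading probe sets lay high in the arrays' range. Sftpa1 was the brightest probe set of the array in 10 of 28 tumours, with a median of 96.7% of the array's highest signal. Sftpd had a median of 70.1%, Slc34a2 57.3%, Lpcat1 50.4% and Sftpc 50.3%. The deposited values carry no mark of saturation. Spread between tumours narrowed with signal over the whole array: the median SD of log2 values was 0.59 for 27495 probe sets with a mean signal under 200, 0.32 for 331 between 10000 and 15000 and 0.22 for 104 above 20000. Sftpa1 (SD 0.25) and Sftpd (SD 0.27) were close to the value for their brightness, and S100g (SD 0.79) and Sftpb (SD 0.56) varied most among the leading probe sets.

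**Figure D2:**
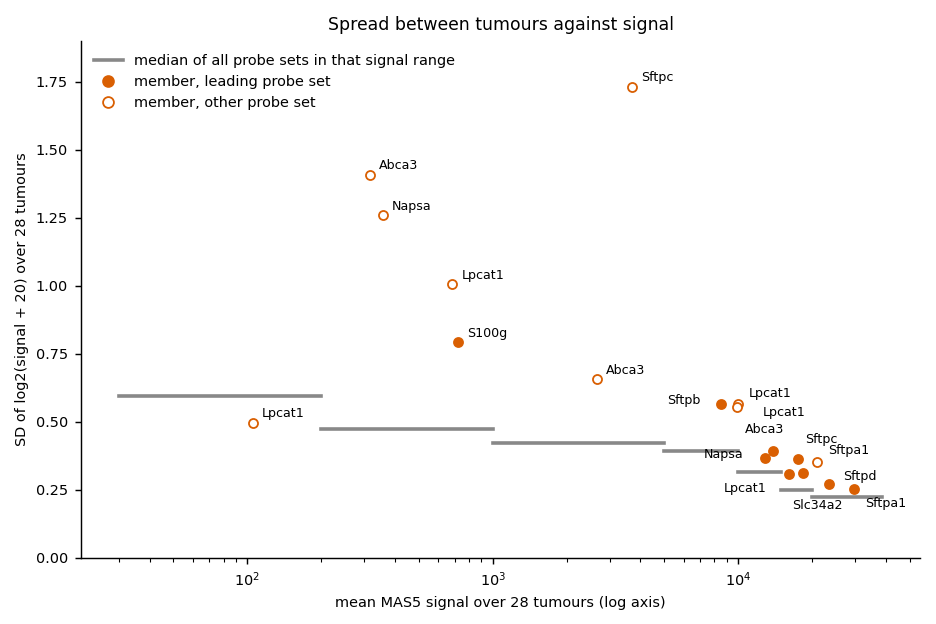
SD of log2(signal + 20) over 28 tumours against mean signal (log axis) for the 18 probe sets (filled, leading; open, other), with grey lines for the median SD of all probe sets in each signal range. The 7 leading probe sets with a mean signal above 10000 lie between 0.25 and 0.39, and the Sftpc probe set 1438290_x_at is the highest point at 1.73.

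TI-KM and TI-K primaries were compared for what Mad2 adds. None of the 9 leading probe sets was called, and the largest difference was -0.27 ± 0.16 (adjusted p = 0.235) for Abca3. The differences were -0.07 ± 0.11 for Sftpa1, -0.09 ± 0.12 for Sftpd, -0.24 ± 0.14 for Sftpc and 0.16 ± 0.23 for Sftpb. They were 0.19 ± 0.16 for Napsa, 0.01 ± 0.13 for Lpcat1, -0.08 ± 0.13 for Slc34a2 and -0.20 ± 0.29 for S100g. Their median was -0.08, against 0.04 over all probe sets.

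Over all 18 probe sets 3 were called (1 higher, 2 lower), where 15.8% of all probe sets were (7.49% higher, 8.33% lower). All 3 were dim second probe sets, of Abca3, Napsa and Lpcat1. With the array sets as a block 0 of 18 were called by limma (1 at an unadjusted p below 0.05), and 0% of all probe sets (1445 unadjusted).

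Abca3 1451869_at had signals of 854 to 1743 in high-number TI-K arrays, 140.4 to 302 in remaining TI-K arrays, 33.1 to 489 in TI-KM primaries and 67.1 to 89.6 in recurrences. The 5 high-number arrays lay above every other tumour, and the 3 remaining TI-K arrays lay inside the TI-KM range. It fell in TI-KM primaries by 2.04 ± 0.40 (adjusted p = 0.00312), and with the block the difference was -0.58 ± 0.48 (adjusted p = 0.997). On the leading Abca3 probe set the high-number arrays had 15422 to 21117, within or just above the range of other tumours.

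Napsa 1430744_at showed the same division, with 715 to 1483 in high-number TI-K arrays, 134 to 539 in remaining TI-K arrays, 97.4 to 536 in TI-KM primaries and 42.6 to 100.2 in recurrences. It fell in TI-KM primaries by 1.51 ± 0.31 (adjusted p = 0.00402), against -0.45 ± 0.40 (adjusted p = 0.997) with the block. Lpcat1 1420293_at divided by the other set: its signal was 854 to 1949.6 in high-18S TI-KM primaries, 259.5 to 844 in remaining TI-KM primaries and 98.1 to 585 in TI-K primaries. The 6 high-18S primaries lay above all other primaries. The probe set rose in TI-KM primaries by 1.34 ± 0.34 (adjusted p = 0.0107), against 0.18 ± 0.38 (adjusted p = 0.997) with the block. What sets these arrays apart was not tested.

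**Figure D3:**
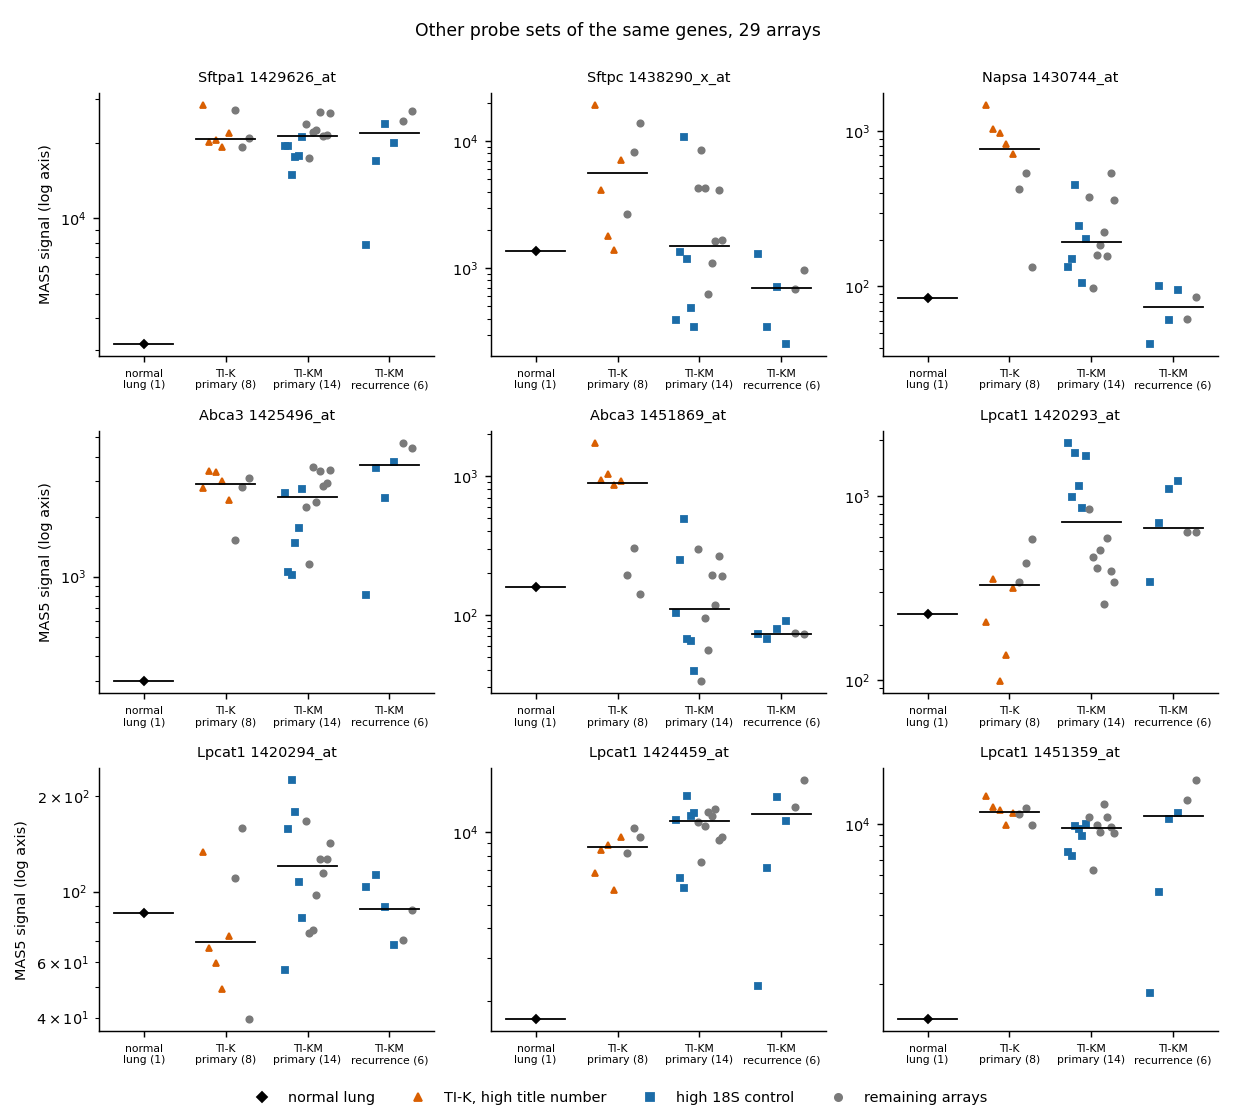
MAS5 signal (log axis) of the 9 other probe sets of Sftpa1, Sftpc, Napsa, Abca3 and Lpcat1 by group, with 1 point per array, the group median as a line and the array set as the marker shape. The high-number TI-K arrays stand above all other tumours for Napsa 1430744_at and Abca3 1451869_at.

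Probe sets of the same gene followed each other to different degrees across the 28 tumours, by permutation tests adjusted over 16 pairs. The pair for Sftpa1 had Pearson r = 0.907, adjusted p = 8e-05; Spearman rho = 0.816, adjusted p = 5.33e-05; r = 0.823 without the 2 farthest arrays, and r = 0.852 (adjusted p = 0.00304) in the 13 remaining and r = 0.925 (adjusted p = 0.0281) in the 10 high-18S arrays. The pair for Sftpc had Pearson r = 0.742, adjusted p = 8e-05; Spearman rho = 0.738, adjusted p = 5.33e-05; r = 0.644 without the 2 farthest arrays, with r = 0.926 (adjusted p = 0.00608) in the high-18S but r = 0.223 (adjusted p = 0.69) in the remaining arrays, so the relation was not found in both sets. No relation was detected for the pair of Napsa (Pearson r = 0.144, adjusted p = 0.708; Spearman rho = 0.00711, adjusted p = 0.972; r = -0.0898 without the 2 farthest arrays). With 1451359_at the leading Lpcat1 probe set had r = 0.868 (adjusted p = 0.000107) and rho = 0.493 (adjusted p = 0.0263) by permutation. Without the 2 farthest arrays r was 0.487. In the remaining arrays this pair had r = 0.791 (adjusted p = 0.0166) and rho = 0.582 (adjusted p = 0.158) by permutation. There r was 0.278 without the 2 farthest arrays. In the high-18S arrays the pair had r = 0.882 (adjusted p = 0.0281) and rho = 0.406 (adjusted p = 0.495) by permutation, with r = 0.617 without the 2 farthest arrays. With 1424459_at the leading Lpcat1 probe set had r = 0.613 (adjusted p = 0.0173) and rho = 0.260 (adjusted p = 0.288) by permutation. Without the 2 farthest arrays r was 0.0324, so that the relation rests on those arrays in this test. With 1425496_at the leading Abca3 probe set had r = 0.584 (adjusted p = 0.00371) and rho = 0.485 (adjusted p = 0.0263) by permutation. With 1451869_at it had r = 0.588 (adjusted p = 0.00317) and rho = 0.715 (adjusted p = 5.33e-05). Without the 2 farthest arrays these r were 0.369 and 0.681. In the high-18S arrays alone neither r passed. In the remaining arrays r passed with 1425496_at (r = 0.687, adjusted p = 0.0485 by permutation; 0.337 without the 2 farthest arrays) but not with 1451869_at (r = 0.540, adjusted p = 0.144). Abca3 1425496_at and 1451869_at had r = 0.099 (adjusted p = 0.825) with each other.

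Recurrences were set against TI-KM primaries, the tumours of their own genotype. No probe set was called (0 of 18 by limma, 5 at an unadjusted p below 0.05), where 0.442% of all probe sets were. The leading differences ran from -0.90 ± 0.32 (adjusted p = 0.188) for S100g to 0.32 ± 0.25 (adjusted p = 0.6) for Sftpb, with a median of -0.24 against 0.03 over all probe sets. They were -0.31 ± 0.14 for Slc34a2, -0.31 ± 0.14 for Lpcat1, -0.26 ± 0.17 for Napsa and -0.24 ± 0.13 for Sftpd. They were -0.23 ± 0.16 for Sftpc, -0.16 ± 0.18 for Abca3 and -0.15 ± 0.12 for Sftpa1. Most of these differences shrank when recurrence 1 was left out. They were then -0.10 for Slc34a2, -0.12 for Lpcat1, 0.01 for Napsa, -0.11 for Sftpd, 0.07 for Abca3 and -0.01 for Sftpa1. In the same fit S100g had -0.62, while Sftpb (0.56) and Sftpc (-0.33) moved further from 0. With the block 1 was called (1.79% of all), Napsa 1430744_at at -1.31 ± 0.30 (adjusted p = 0.0258), against -1.35 ± 0.35 (adjusted p = 0.0681) without it.

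Recurrences differ from TI-K primaries both in genotype and in relapse. Here 6 of 18 probe sets were called (1 higher, 5 lower), where 26.9% of all probe sets were (13.6% higher, 13.3% lower). Their share over both directions was near the background. The 5 lower calls include both Sftpc probe sets and the dim Napsa and Abca3 probe sets that divided by array set. They are not independent, so their direction is not read as a result. The median difference of the leading probe sets was -0.33 against 0.08 over all probe sets, and -0.12 against -0.06 with the block. With the block 0 of 18 probe sets were called by limma (4 unadjusted), and 0.197% of all. The tumour comparisons share arrays with each other.

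S100g had the smaller adjusted p of the 2 leading calls. Its signals in recurrences 1 to 6 were 123, 329, 311, 472, 299 and 1117, and in TI-K primaries 377 to 745 in high-number and 1130.1 to 2432 in remaining arrays. Recurrences 1, 2, 3 and 5 lay below every TI-K primary, and the TI-K sets did not overlap each other. S100g fell by 1.10 ± 0.35 (adjusted p = 0.0217). The difference was -0.82 (adjusted p = 0.0819) without recurrence 1 and -1.60 ± 0.39 (adjusted p = 0.0742) when sets were blocked.

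Sftpc 1418639_at had signals of 20649, 13661, 13038, 10459.9, 13572 and 16555 in recurrences 1 to 6, of which 4 lay below the lowest TI-K primary. It fell by 0.46 ± 0.18 (adjusted p = 0.049). The call was kept in 8 of 28 fits that each left out 1 tumour, and the difference was -0.37 (adjusted p = 0.112) without TI-K primary 1 and -0.26 ± 0.25 (adjusted p = 0.694) when sets were blocked.

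The second Sftpc probe set, 1438290_x_at, ranged 76.2-fold over the tumours, against 2.97-fold for the leading one. It had 1365 in the normal lung, 1394 to 19287 (median 5593) in TI-K primaries, 343 to 10744 (median 1486) in TI-KM primaries and 253 to 1302 (median 697) in recurrences. Every recurrence lay below every TI-K primary, and TI-KM primaries spanned both. It fell 8.01-fold (SE 0.69 on the log2 scale, adjusted p = 0.00219) from TI-K primaries to recurrences. The block gave -2.71 ± 0.96 (adjusted p = 0.187), and a fit on the remaining arrays, with 3 TI-K primaries and 2 recurrences, gave -3.03 ± 0.88 (adjusted p = 0.191).

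The other 3 calls were on the dim probe sets divided by array set: Napsa 1430744_at at -2.85 ± 0.38 (adjusted p = 1.62e-05), Abca3 1451869_at at -2.64 ± 0.49 (adjusted p = 0.000284) and Lpcat1 1420293_at at 1.33 ± 0.41 (adjusted p = 0.0183). The block gave -1.76 ± 0.46 (adjusted p = 0.0883), -1.17 ± 0.56 (adjusted p = 0.341) and -0.10 ± 0.44 (adjusted p = 0.948), which turned the direction of the last. Without recurrence 6 the count of limma calls rose from 6 to 11, with Slc34a2 at -0.48 (adjusted p = 0.0207) and Sftpd at -0.41 (adjusted p = 0.0289) among the added ones. The share of all probe sets called in that fit is not given, so the rise cannot be read as particular to these genes. Without recurrence 1, by limma, Slc34a2 was at -0.18 (adjusted p = 0.261) and Sftpd at -0.20 (adjusted p = 0.27). Among the remaining arrays alone they were at -0.04 and 0.03.

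**Figure D4:**
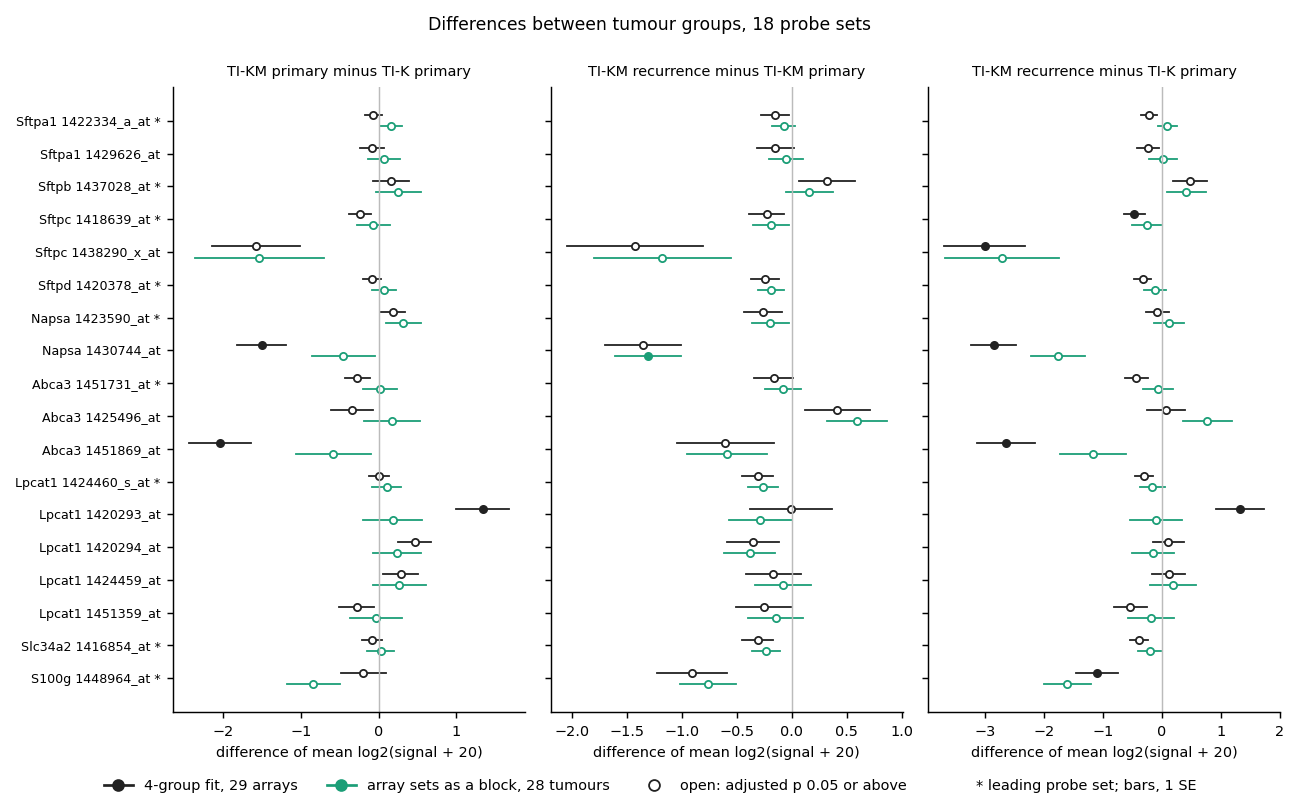
Differences between tumour groups in mean log2(signal + 20) for the 18 probe sets, with bars of 1 SE, from the 4-group fit (black) and with array sets as a block (green); filled points were called at an adjusted p below 0.05. The black points called are 3 between the primary groups and 6 between recurrences and TI-K primaries, and the 1 green point called is Napsa 1430744_at between recurrences and TI-KM primaries.

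Sftpb differed between array sets within a group. Its median signal was 11248 in high-18S and 6007 in remaining TI-KM primaries, and 14138 in high-18S and 8156 in remaining recurrences. In TI-K primaries it was 7670.1 in high-number and 5267 in remaining arrays. The ranges overlapped, since recurrence 1 (4320.4) and TI-KM primary 3 (5858) were low for high-18S arrays.

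RNA quality moved with some of these genes. The log2 ratio of 3' to 5' signal of the Gapdh and beta-actin controls, which rises when labelled RNA is shorter, was 2.16 ± 0.41 (SD, n = 8) in TI-K primaries, 2.16 ± 0.67 (SD, n = 14) in TI-KM primaries and 1.32 ± 0.45 (SD, n = 6) in recurrences; the normal lung had 2.59. Over 28 tumours the leading Sftpc probe set rose with this ratio (r = 0.647, adjusted p = 0.0021; rho = 0.579, adjusted p = 0.00612; r = 0.532 without the 2 farthest arrays; permutation tests adjusted over 18 probe sets). So did Sftpc 1438290_x_at (r = 0.687, adjusted p = 0.00054; rho = 0.756, adjusted p = 0.00018; r = 0.645 without the 2 farthest arrays) and Sftpd (r = 0.665, adjusted p = 0.0021; rho = 0.605, adjusted p = 0.00564; r = 0.644 without the 2 farthest arrays), while Sftpb went the other way (r = -0.491, adjusted p = 0.024; rho = -0.515, adjusted p = 0.0166; r = -0.433 without the 2 farthest arrays), by the same permutation tests. In all, r passed for 9 of the 18 probe sets. The others were the leading probe set of Lpcat1 (r = 0.623, adjusted p = 0.00828; rho = 0.566, adjusted p = 0.0068; r = 0.528 without the 2 farthest arrays), Lpcat1 1420294_at (r = 0.481, adjusted p = 0.024; rho = 0.469, adjusted p = 0.026; r = 0.402 without the 2 farthest arrays), Slc34a2 (r = 0.563, adjusted p = 0.024; rho = 0.635, adjusted p = 0.00369; r = 0.610 without the 2 farthest arrays), Napsa 1430744_at (r = 0.437, adjusted p = 0.0363; rho = 0.499, adjusted p = 0.0196; r = 0.425 without the 2 farthest arrays) and S100g (r = 0.464, adjusted p = 0.0335; rho = 0.416, adjusted p = 0.0501; r = 0.525 without the 2 farthest arrays), by permutation. Of these, rho for S100g missed the threshold.

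Within array sets fewer relations passed the permutation test, 0 of 18 by r in the remaining and 5 of 18 in the high-18S arrays. In the 13 remaining arrays the leading Sftpc probe set had r = 0.687 (adjusted p = 0.137), 1438290_x_at r = 0.566 (adjusted p = 0.137), Sftpd r = 0.184 (adjusted p = 0.764) and Sftpb r = -0.604 (adjusted p = 0.137). In the 10 high-18S arrays, by permutation, the same probe sets had r = 0.716 (adjusted p = 0.0858), r = 0.890 (adjusted p = 0.035), r = 0.774 (adjusted p = 0.0414) and r = -0.372 (adjusted p = 0.381). Napsa 1430744_at had r = 0.546 (adjusted p = 0.137) in the remaining and r = 0.784 (adjusted p = 0.035) in the high-18S arrays by permutation, and S100g r = 0.453 (adjusted p = 0.236) and r = 0.456 (adjusted p = 0.308). With the ratio as a covariate the differences of recurrences from TI-K primaries were -0.17 (adjusted p = 0.493) for the leading Sftpc probe set, -1.65 (adjusted p = 0.0587) for 1438290_x_at and -0.83 (adjusted p = 0.133) for S100g, and 3 of the 6 calls were left. The part of RNA quality in these differences was otherwise not tested.

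Recurrence 1 stood apart. It was the lowest of all 28 tumours on 7 of the 9 leading probe sets and on 12 of all 18, and the lowest recurrence on 8 of the 9. Its log2 values lay -2.38 to 0.26 from the median of the 22 primaries, with a median over the 9 genes of -1.23. Napsa was 4438 there against 10388 to 16607 in the other recurrences, Slc34a2 7408 against 15233 to 20775 and Abca3 5136 against 11911 to 17526. Sftpc was the exception, with 20649 the highest signal of any recurrence.

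Several sums of markers of other cells were extreme in recurrence 1. Its summed signal over 8 leukocyte genes was 32128, against 2542 to 11887 in the other 27 tumours. Most of it came from Ptprc, the common leukocyte antigen, at 17743, and Ms4a1, a B cell gene, at 10963. With Cd3g (1477) and Nkg7 (870.3), 4 of the 8 genes lay above all other tumours, while the T cell gene Cd3e (191) and the neutrophil genes S100a8 (391), S100a9 (115) and Csf3r (378) lay within their range. The ciliated sum was 15498 against 485 to 10036, and Foxj1, the regulator of ciliated cells, was 529.7 against 4.77 to 239 in primaries. The club cell sum (119473 against 14514 to 110420) and the fibroblast and muscle sum (29696 against 6797 to 28042) were the highest of the tumours, and the alveolar type I sum was the lowest (36625 against 45273 to 87472). Single genes were less uniform. Of 9 club cell genes, 4 lay above all other tumours and 5 within their range. Of 9 fibroblast and muscle genes, 2 lay above, 6 within and 1 below. Of 10 alveolar type I genes, 4 lay below and 6 within, and of 8 ciliated genes 7 lay above. The alveolar macrophage sum lay within the range (35829 against 10701 to 63482). Of its 9 genes, Cd68 (4824) and Adgre1 (2334) were above all other tumours, and the other 7, such as Itgax (3321) and Marco (12.6), lay within their range. Over all recurrences 6 of 8 ciliated genes were higher than in TI-K primaries, where 14.4% of all genes were; 3 were without recurrence 1 and 0 with the block. The part of these cells in the low surfactant signals of recurrence 1 was not tested.

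**Figure D5:**
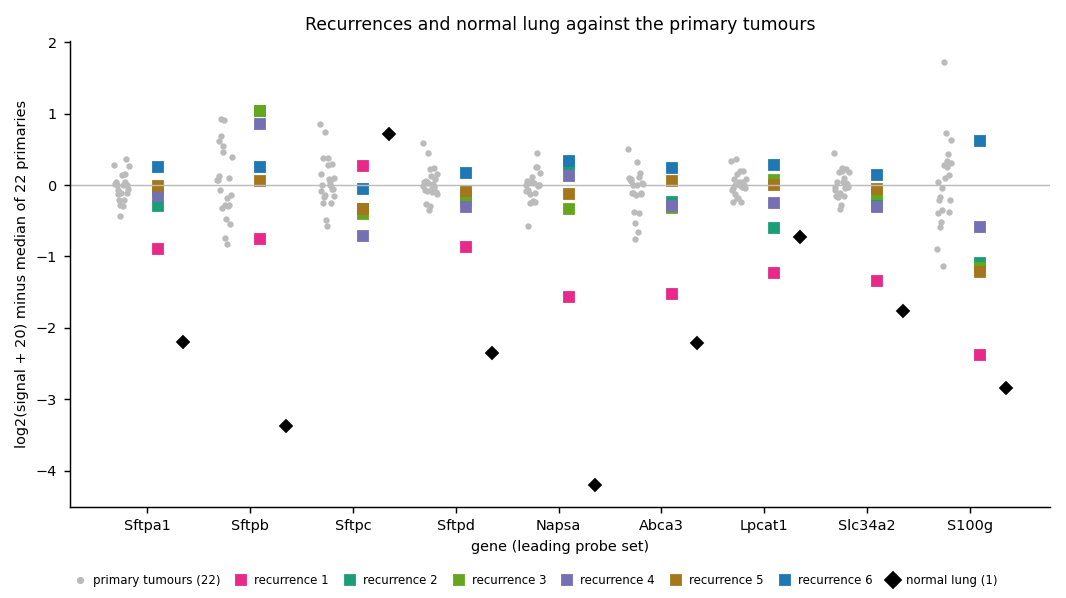
Log2(signal + 20) of the leading probe set of each gene minus the median of the 22 primaries, for the primaries (grey points), the 6 recurrences (coloured squares) and the normal lung (diamonds). Recurrence 1 lies below the primaries' median for 8 genes and above it for Sftpc.

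Few genes of the wider pathway were called between tumour groups. In TI-KM against TI-K primaries (11.7% of genes called), 1 of 13 maturation genes was higher, Rab38 at 0.54 ± 0.15 (adjusted p = 0.0159), and 0 of 15 other markers were called. The regulators Cebpa (0.62 ± 0.21, adjusted p = 0.0415) and Thrb (0.73 ± 0.24, adjusted p = 0.0346), a thyroid hormone receptor, were higher, and the lipid gene Gpam, a glycerol-phosphate acyltransferase, was lower (-0.84 ± 0.28, adjusted p = 0.0368). In recurrences against TI-K primaries (22% of genes called), Thrb was higher (1.07 ± 0.29, adjusted p = 0.00749) and 3 of 16 lipid genes were lower, among them Chka (-0.83 ± 0.23, adjusted p = 0.0107) and Gpam (-1.08 ± 0.34, adjusted p = 0.0181). Of the other alveolar type II markers, Cd74, the invariant chain, was higher (0.58 ± 0.20, adjusted p = 0.0282) and Rnase4, a secreted ribonuclease, lower (-0.44 ± 0.16, adjusted p = 0.0425), and without recurrence 1 no marker of that list was called. With the block no gene of these 4 lists was called in any tumour comparison. Thrb was dim, with signals of 36.7 to 71.1 in TI-K primaries, 47.5 to 250 in TI-KM primaries and 66.9 to 201 in recurrences. Its calls rest on low signals.

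After the mean of each array set was taken off, the correlation of the leading probe set with the mean of the 9 standardised ones over 28 tumours was 0.96 for Slc34a2, 0.89 for Lpcat1, 0.88 for Sftpd, 0.88 for Abca3, 0.86 for Sftpa1 and 0.76 for Napsa. It was 0.54 for S100g, 0.51 for Sftpb and 0.20 for Sftpc. These are descriptions, since each gene is part of the mean and all share the array and its scaling. Without recurrence 1 and TI-KM primary 3, the arrays farthest out, Sftpc had 0.54, Napsa 0.46 and S100g 0.20. Among 14593 other genes the 5 most like the mean were Tgoln1 at 0.93, Sdc1 at 0.91, Slc25a39 at 0.90, Atp1b1 at 0.89 and Pls3 at 0.89, which without those arrays had 0.87, 0.76, 0.75, 0.63 and 0.66.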

How the data were processed

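The deposited values are intensities, MAS5 signals per probe set on a linear scale made by the authors, per the submitters' processing notes; no version of MAS5 is given in the sources used here. Per the labels, total RNA was extracted with RNeasy, prepared in a 2-cycle protocol and labelled with biotin. Every array has a trimmed mean (2% off each end) of 500.003, so no further scaling was applied. The table holds 45101 probe sets, 64 of them controls, which is more than the array named by the submitters carries. Precision is limited by the number of arrays.

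Names come from GEO's platform annotation, with symbols brought up to date through RefSeq (GRCm38.p6), and promoters from RefSeq; no genome was used. Of the probe sets, 34945 named 1 gene, 932 several and 9160 none. A probe set was kept if above the 40th percentile of its array in at least 6 arrays. An offset of 20 was added before log2, so folds of dim genes are understated. All 29 arrays in 4 groups entered limma (3.58.1, in R 4.3.3; variance trend), fitted per probe set, with Benjamini-Hochberg adjustment over all 31932. Lists used the brightest probe set of each gene. In simulated data, 97 of 100 probe sets changed 4-fold and 59 of 100 changed 2-fold were recovered for TI-KM against TI-K primaries, and 38 and 4 of 100 for TI-K primaries against normal lung, so smaller differences can go uncalled. Correlations used 100000 permutations (SciPy 1.17.1 in Python 3.11.15).

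The TRE-driven transgene of TI-K mice is not reported here. The genes, lists and array sets were chosen with earlier results of these data known. Named genes are all members, a fixed set of markers, for each surfactant list up to 2 genes with the smallest p among those called in a comparison, and the 5 genes most like the members' mean. Leukocyte and macrophage genes other than Marco were named after their values were seen. Lists measured 13 of 13 maturation, 16 of 17 lipid, 15 of 16 marker, 11 of 11 regulator, 10 of 10 alveolar type I, 9 of 9 club, 8 of 8 ciliated, 9 of 12 alveolar macrophage, 8 of 9 leukocyte, 9 of 9 endothelial, 9 of 9 fibroblast and muscle, and 4 of 7 fat genes. Alternatives were other offsets, filters, scalings, variance models, units, array sets, the 3'/5' ratio, averaging of the pair that shares number 76, and leaving out each tumour.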

Additional observations from a re-analysis of the deposited data

Results flagged for a closer look

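Within groups of 6 and 8 arrays, 13 of 60 sets of values held 1 array far from the others by Dixon's criterion, where chance gives about 1 in 20 for a single set. The 60 sets are measures of the same arrays and include several probe sets of 1 gene. They are not independent, so the count cannot be judged against that rate. Among TI-K primaries, Napsa 1423590_at was low in primary 5 (8856, next 11144) and Abca3 1425496_at in primary 6 (1527, next 2414). Primary 1 was high for Abca3 1451731_at (21117, next 15958) and for the summed maturation genes (78041, next 64295).

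Recurrence 1 was the lowest recurrence for Sftpa1 1429626_at (7851, next 17015), Napsa 1423590_at (4438, next 10388), Abca3 1425496_at (806, next 2487), Abca3 1451731_at (5136, next 11911), Slc34a2 1416854_at (7408, next 15233) and the summed maturation genes (28836, next 53392). The same array was the highest for the summed leukocyte genes (32128, next 7503) and the summed fat genes (1872, next 483). The summed alveolar macrophage genes were low in recurrence 3 (12035, next 31318).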

How the results depend on the processing

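No paired analysis was possible because the labels give no replicate numbers, and the numbers used here only order the arrays. Testing 1 probe set per gene left 9 to test, and the counts of calls were 0 for TI-KM against TI-K primaries, 1 for recurrences against TI-K primaries, and 7, 7 and 6 for the 2 primary groups (TI-K first) and the recurrences against normal lung. With array sets as a block, or among the remaining arrays alone, the counts were 0 for both comparisons with TI-K primaries; in these fits the TI-K group rests on 3 arrays that share a set with other tumours. With the 3'/5' ratio as a covariate the count for recurrences against TI-K primaries was 3. For recurrences against TI-KM primaries it was 1 with an offset of 1, common median scaling, quantile normalization or the block. Lpcat1 1420293_at reversed to -0.10 with the block. Apart from the block, the counts in this section stand without the share of all probe sets called in the same fit. They say only how the calls depend on the setting. Leaving out 1 tumour gave 3 to 4 calls for TI-KM against TI-K primaries, 0 to 1 for recurrences against TI-KM primaries and 4 (without recurrence 4) to 11 (without recurrence 6) for recurrences against TI-K primaries. Against normal lung it gave 12 to 13 calls for TI-K primaries, 11 to 12 for TI-KM primaries and 10 to 12 for recurrences. Of single differences under all alternatives, 4230 kept their direction and side of the threshold, 60 lost a call, 38 gained 1, 81 uncalled values moved and 1 reversed; the cause was not tested. Median scaling moved the median of all probe sets for TI-K primaries against normal lung from 0.04 to 0.16. The normal lung is a lone array. Signals near the top of the range may limit what can be seen of Sftpa1 and Sftpd, which was not tested.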
